A study of Mus musculus with 6 samples.

Results

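The uptake of dying cells was followed through 10 genes of phagocyte receptors and of the proteins that bridge a phagocyte to an apoptotic cell, chosen by name out of 41786 gene symbols counted. They were the TAM receptor genes *Mertk*, *Axl* and *Tyro3*, their ligand genes *Gas6* and *Pros1*, the bridge gene *Mfge8*, the phosphatidylserine receptor genes *Timd4* and *Stab1*, the scavenger receptor gene *Cd36* and *Lrp1*. All 10 passed the filter on low counts, with 37 to 16163 reads per library. The RNA was that of lesions resembling endometriosis in female C57BL/6 mice, grown from uterus of GFP-positive donors aged 6 weeks that was sutured to the peritoneal wall of wild-type recipients aged 8 weeks. After 3 days, recipients received niclosamide at 200 mg/kg daily for 3 weeks (3 libraries) or vehicle for the same time (3 libraries), and all lesions were collected in diestrus. The sample labels also put necropsy 3 weeks after implantation, which does not match 3 weeks of treatment begun after 3 days. Each library held the RNA of 1 mouse, except vehicle 1, which was a pool of 4 mice. The lesion was dissected from recipient tissue but not sorted, so recipient macrophages, fat and muscle can contribute, and the counts do not separate donor from recipient transcripts.

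A dying cell exposes phosphatidylserine on its outer membrane, and phagocytes take it up by binding that lipid either directly or through a soluble bridge. Gas6 and protein S (encoded by *Pros1*) bind the lipid with one end and a TAM receptor tyrosine kinase with the other, and Mfge8 links it to integrins. Macrophages that clear cells in this way dampen inflammation, and the peritoneal cavity, where such lesions grow, holds resident macrophages that carry the receptor Tim-4. In bulk RNA, a change in the number of cells of a type and a change in transcript per cell cannot be told apart.

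Libraries held 27797121 to 34797000 counted reads. Markers of uterine epithelium (332 to 1959.8 CPM summed over 9 genes with niclosamide, 708 to 1741 with vehicle) and of macrophages were detected in every library. So were those of striated muscle (sum 800 to 31619 CPM with niclosamide and 4393 to 10935 with vehicle), with the highest sum in niclosamide 1 and the lowest in niclosamide 2. CPM are counts divided by the library size and put on a common scale, with sizes adjusted by the trimmed mean of M-values (TMM).

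None of the 10 genes differed between the groups past the threshold. In the edgeR quasi-likelihood fit of 17364 genes, with Benjamini-Hochberg adjustment over all of them, 0 of 10 had an adjusted p under 0.05, as did 0% of all genes tested, and DESeq2 and limma-voom also called 0 of 10 (DESeq2 called 1.16% of all genes, and 8.19% had an unadjusted p under 0.05). At an unadjusted p under 0.05 there was 1 of 10, *Mertk*, against 6.92% of all genes, of which 3.37% were higher and 3.55% lower with niclosamide. In CPM, *Mertk* was also the only gene of the 10 whose groups did not overlap. Of all genes tested, 12.3% had groups that did not overlap (5.9% higher, 6.37% lower). The median log2 fold change (niclosamide over vehicle) was -0.02 over the 10 genes, 4 of them above 0, and 0.02 over all genes, of which 53.7% were above 0 and 46.3% below. The plot of CPM by library shows the overlap of the groups in the other 9 genes.

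**Figure D1:**
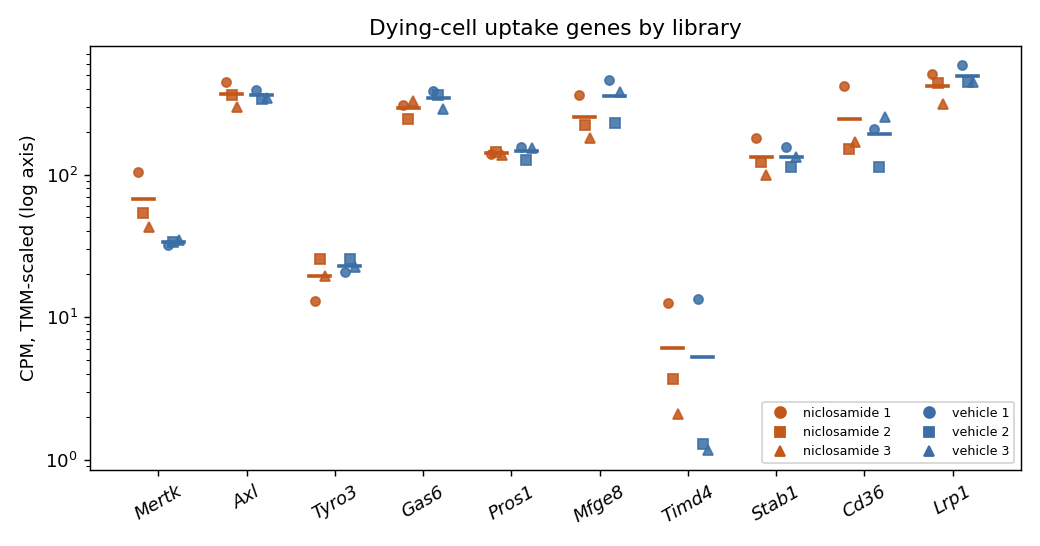
CPM (log axis) of the 10 genes in the 3 niclosamide (orange) and 3 vehicle (blue) libraries; symbols mark the library number and bars the group mean. All niclosamide values of *Mertk* (42.7 to 105 CPM) lie above all vehicle values (31.9 to 35.0 CPM), while the groups of the other 9 genes overlap.

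The start regions of 4 of these genes are shown because they hold, or lack, the letters described here. They are *Mertk*, the gene whose groups stood apart in CPM, *Timd4*, the gene that varied most, and *Pros1* and *Lrp1*. Those last 2 are the only ones of the 10 with a STAT-type motif. Each window runs 5′ to 3′ from 250 bases before to 50 after the RefSeq start (GRCm38.p6), at chr2:128698665-128698964 (plus strand), chr11:46810549-46810848 (plus), chr16:62854057-62854356 (plus) and chr10:127621099-127621398 (minus). Capitals mark the STAT-type motif TTCNNNGAA and the GC box GGGCGG, the letters known to be bound by Sp1, on either strand.
Mertk promoter: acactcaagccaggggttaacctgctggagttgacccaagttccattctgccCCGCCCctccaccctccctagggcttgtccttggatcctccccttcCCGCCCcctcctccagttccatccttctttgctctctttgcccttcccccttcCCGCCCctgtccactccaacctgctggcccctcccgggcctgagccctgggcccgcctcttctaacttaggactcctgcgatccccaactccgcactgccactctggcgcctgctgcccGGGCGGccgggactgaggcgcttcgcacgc
Timd4 promoter: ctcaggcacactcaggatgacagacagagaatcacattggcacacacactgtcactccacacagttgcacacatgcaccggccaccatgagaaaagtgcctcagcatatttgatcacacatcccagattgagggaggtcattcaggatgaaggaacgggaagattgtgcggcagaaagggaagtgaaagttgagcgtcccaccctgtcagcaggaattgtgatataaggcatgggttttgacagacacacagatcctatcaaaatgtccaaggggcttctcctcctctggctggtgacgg
Pros1 promoter: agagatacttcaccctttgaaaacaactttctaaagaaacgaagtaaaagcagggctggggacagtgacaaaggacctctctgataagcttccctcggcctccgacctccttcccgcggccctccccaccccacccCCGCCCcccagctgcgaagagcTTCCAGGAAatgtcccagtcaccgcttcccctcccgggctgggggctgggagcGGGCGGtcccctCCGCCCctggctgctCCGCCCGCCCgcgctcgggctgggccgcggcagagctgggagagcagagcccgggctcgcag
Lrp1 promoter: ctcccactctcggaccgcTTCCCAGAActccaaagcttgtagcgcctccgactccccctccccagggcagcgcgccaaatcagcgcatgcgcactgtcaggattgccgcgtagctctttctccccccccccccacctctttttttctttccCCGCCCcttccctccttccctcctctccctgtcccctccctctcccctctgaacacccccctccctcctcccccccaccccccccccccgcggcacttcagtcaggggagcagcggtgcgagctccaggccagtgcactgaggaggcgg
The STAT-type motif stood 92 bases before the start in *Pros1* and 232 before it in *Lrp1*, and in 8.30% of 32851 windows of the same length. The GC box was in 8 of 10 windows (all but *Timd4* and *Stab1*) and in 35.7% of all windows, with 4 copies in *Mertk*. In *Pros1*, 2 of the 5 GC boxes overlapped. TATAAA (13.6% of all windows), AGATAA (11.2%), CACGTG (7.15%) and GAGGAAGT (3.20%), searched on both strands, were in 0 of the 10. GC content ran from 43.0% in *Cd36* to 73.3% in *Tyro3*, with a median of 52.7% over all windows. RefSeq matched all 10 genes with 1 window each. *Cd36* and *Tyro3* have further, more upstream exons in the counted annotation, so their windows show only 1 of their starts.

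*Mertk*, the TAM receptor best known from macrophages and from the retinal pigment epithelium, was counted over 20 exon intervals on chromosome 2, 128698997 to 128803162 (GRCm38.p3, as are the other gene coordinates). It had 105, 53.7 and 42.7 CPM in niclosamide 1 to 3, against 31.9, 33.7 and 35.0 CPM in vehicle 1 to 3. The 3 vehicle libraries lay close together, whereas niclosamide 1 stood well above the other two niclosamide libraries. The means were 67.0 ± 33.0 CPM with niclosamide and 33.5 ± 1.53 with vehicle (SD, n = 3 each), a log2 fold change of 1.00 ± 0.33 (SE; 95% interval 0.20 to 1.801) that did not pass (edgeR quasi-likelihood, Benjamini-Hochberg adjusted p = 0.65). The size of that value depended on 1 library: without niclosamide 1 the niclosamide mean was 48.2 CPM, 1.44 times that of vehicle. The log2 fold change was then 0.52 ± 0.15 (edgeR quasi-likelihood, unadjusted p = 0.014, adjusted p = 0.87), against an unadjusted p of 0.022 with all libraries. The other niclosamide libraries still lay above all vehicle values.

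*Axl*, a TAM receptor found on fibroblasts, endothelium and activated macrophages and bound mainly by Gas6, lies on chromosome 7 (25756500 to 25788733). It had 446, 359.6 and 296 CPM in niclosamide 1 to 3, against 393, 341 and 344 in vehicle 1 to 3. Niclosamide 1 was the highest and niclosamide 3 the lowest of all 6 libraries, with the vehicle values between them. Its log2 fold change was 0.03 ± 0.19 (95% interval -0.43 to 0.49), and it turned to -0.14 without niclosamide 1. *Tyro3*, a TAM receptor with a high level in the nervous system, lies on chromosome 2 (119797740 to 119818104). It had 13.1, 25.5 and 19.5 CPM in niclosamide 1 to 3, against 20.6, 25.8 and 22.4 in vehicle 1 to 3. Here niclosamide 1, the library highest in *Mertk* and *Axl*, was the lowest. The log2 fold change of *Tyro3* was -0.24 ± 0.26 (95% interval -0.86 to 0.37), and -0.03 without niclosamide 1.

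On a scale that accounts for exon length (TPM, a share of all transcripts in the library after division by exon length), *Axl* made up most of the TAM receptor transcripts in every library. *Mertk* took 18.8%, 12.4% and 12.1% of the summed TPM of the 3 receptors in niclosamide 1 to 3, against 7.28%, 8.53% and 8.83% in vehicle 1 to 3. The mean shares of *Mertk* were 14.4% ± 3.79 with niclosamide and 8.21% ± 0.825 with vehicle (SD, n = 3 each). Those of *Axl* were 80.9% ± 1.86 and 86.1% ± 1.65, and neither share overlapped between the groups. *Tyro3* had 4.63% ± 1.96 with niclosamide and 5.67% ± 0.920 with vehicle, with overlap. The ratio of *Axl* to *Mertk* in TPM was 4.19, 6.59 and 6.81 in niclosamide 1 to 3, against 12.1, 9.95 and 9.68 in vehicle 1 to 3. These shares carry the *Mertk* difference given above and are no separate observation of it.

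**Figure D2:**
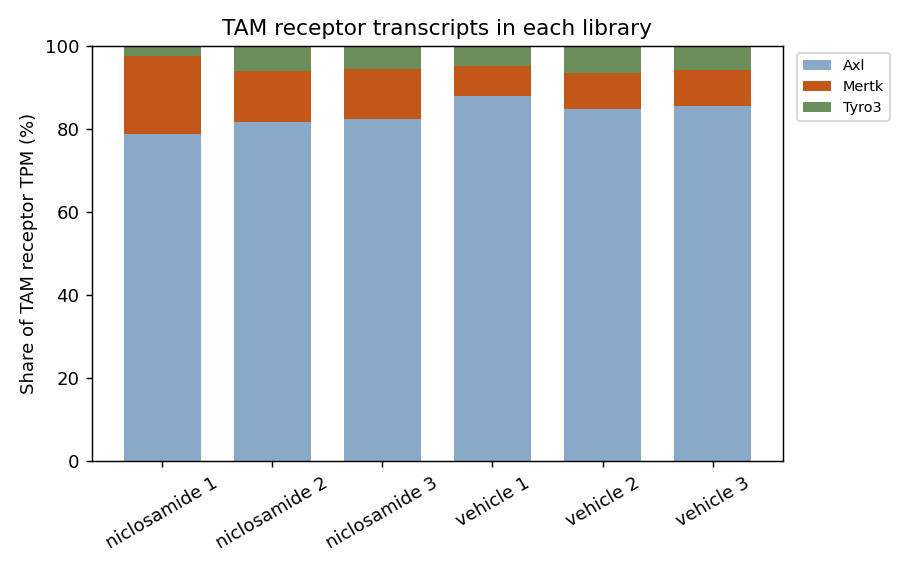
Share of each receptor in the summed TPM of *Axl*, *Mertk* and *Tyro3* (percent, bars from 0 to 100), in niclosamide 1 to 3 and vehicle 1 to 3. *Axl* takes 78.8% to 82.3% with niclosamide and 84.9% to 88.0% with vehicle, and *Mertk* (orange) at least 12.1% with niclosamide and at most 8.83% with vehicle.

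Neither ligand gene passed the threshold, and the groups of each overlapped in CPM. *Gas6*, whose product binds all TAM receptors, lies on chromosome 8 (13465374 to 13494535). It had 307, 246 and 326 CPM in niclosamide 1 to 3, against 385, 359 and 289 in vehicle 1 to 3. Vehicle 3 lay inside the niclosamide range, and the log2 fold change was -0.23 ± 0.18 (95% interval -0.67 to 0.21). *Pros1*, which encodes the anticoagulant protein S, a ligand of Mertk and Tyro3, lies on chromosome 16 (62854334 to 62929346). It had 140.0, 143 and 138 CPM in niclosamide 1 to 3, against 156, 127 and 153 in vehicle 1 to 3. The highest of the 6 libraries had 1.23 times the lowest, the narrowest range among the 10 genes. For *Pros1* the log2 fold change was -0.05 ± 0.13 (95% interval -0.36 to 0.27), so a change of more than 0.36 in either direction lay outside that interval. In TPM, *Gas6* exceeded *Pros1* in every library, by 2.24 to 3.07 times with niclosamide and 2.46 to 3.69 times with vehicle.

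*Mfge8* encodes milk fat globule EGF factor 8, a secreted bridge from phosphatidylserine to the integrins alpha-v beta-3 and alpha-v beta-5, and lies on chromosome 7 (79133768 to 79149060). It had 359, 222 and 182 CPM in niclosamide 1 to 3, against 459, 230.2 and 379 in vehicle 1 to 3. Niclosamide 2 and 3 were the 2 lowest libraries, but vehicle 2 stood close to niclosamide 2 and below niclosamide 1. The means were 254 ± 92.8 CPM with niclosamide and 356 ± 116 with vehicle (SD, n = 3 each). The log2 fold change of -0.49 ± 0.35 was the lowest of the 10 and did not pass (95% interval -1.32 to 0.35; edgeR adjusted p = 0.90). Without niclosamide 1 it was -0.82 (edgeR adjusted p = 0.88), and without vehicle 1 it was -0.26.

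*Timd4* encodes Tim-4, which binds phosphatidylserine directly and marks resident peritoneal macrophages, and lies on chromosome 11 (46810786 to 46844333). It had 12.5, 3.68 and 2.08 CPM in niclosamide 1 to 3, against 13.4, 1.29 and 1.16 in vehicle 1 to 3. The 2 high libraries, niclosamide 1 and the pooled vehicle 1, came from different groups. They rested on 368 and 367 reads, and the lowest library, vehicle 3, on 37 (exact Poisson 95% interval 26.1 to 51.0, for counting error only). The spread within vehicle was 11.5-fold, and the log2 fold change was 0.21 ± 1.13 (95% interval -2.52 to 2.94). Without the pool it was 2.30 (edgeR adjusted p = 0.92), and without niclosamide 1 it was -0.88. Of 10 genes used to mark resident peritoneal macrophages, 2 (*Vsig4* and *Prg4*) were likewise highest in vehicle 1 and next highest in niclosamide 1. *Vsig4* had 2.82, 1.95 and 0.280 CPM in niclosamide 1 to 3, against 3.86, 0.439 and 0.754 in vehicle 1 to 3. *Alox15*, of the same list, had its lowest value in niclosamide 1, with 68.6, 306 and 412 CPM in niclosamide 1 to 3, against 211, 124 and 100.5 in vehicle 1 to 3. *Gata6*, a transcription factor gene of these macrophages, had 44.2, 34.4 and 17.01 CPM in niclosamide 1 to 3, against 31.8, 14.2 and 24.7 in vehicle 1 to 3. All 10 genes of that list were above 0 in every library, with sums of 487 to 869 CPM with niclosamide and 427 to 744 with vehicle, and niclosamide 1 had the lowest niclosamide sum. The part of these cells in the *Timd4* values was not tested.

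*Stab1* encodes stabilin-1, a phosphatidylserine receptor of macrophages and of sinusoidal and lymphatic endothelium, and lies on chromosome 14 (31139017 to 31168652). It had 179, 123 and 99.3 CPM in niclosamide 1 to 3, against 157, 113 and 132 in vehicle 1 to 3. The niclosamide libraries enclosed the vehicle range, and the group means were 134 ± 41.0 and 134 ± 22.4 CPM, with a log2 fold change of 0.00 ± 0.25 (95% interval -0.60 to 0.59). In the same libraries, summed lymphatic endothelium markers ran from 320.1 to 377 CPM with niclosamide and from 237 to 475 with vehicle. All 6 of those markers were above 0 in each library, and their part in *Stab1* was not tested.

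*Cd36* encodes a scavenger receptor that takes up fatty acids and oxidized lipoproteins and, with thrombospondin, binds apoptotic cells. It lies on chromosome 5 (17781690 to 17888959), and fat cells, capillary endothelium and muscle express it as well as macrophages. It had 416, 152 and 169.8 CPM in niclosamide 1 to 3, against 209.7, 113 and 254 in vehicle 1 to 3. Niclosamide 1 was the highest library, and vehicle 2 the lowest. The log2 fold change was 0.36 ± 0.48 (95% interval -0.80 to 1.51), and -0.26 without niclosamide 1. Niclosamide 1 was also the library with most transcript of fat cells and of striated muscle. *Adipoq*, the adiponectin gene, had 71.6, 0.402 and 4.39 CPM in niclosamide 1 to 3, against 38.4, 14.8 and 3.68 in vehicle 1 to 3. The 9 fat cell markers, all above 0 in each library, summed to 27.8 to 646 CPM with niclosamide and 80.5 to 330.5 with vehicle. Vehicle 3, the highest vehicle library in *Cd36*, had the lowest vehicle sum of fat cell markers. Striated muscle markers summed to 31619, 800 and 11111 CPM in niclosamide 1 to 3, against 4393, 10207 and 10935 in vehicle 1 to 3. Blood endothelium markers summed to 470 to 627 CPM with niclosamide and 487 to 714 with vehicle. The part of these cell types in the *Cd36* values was not tested.

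*Lrp1* encodes a large endocytic receptor that takes up cells bearing calreticulin, is also abundant in fibroblasts and smooth muscle, and lies on chromosome 10 (127538157 to 127621148). It had 504, 441 and 313 CPM in niclosamide 1 to 3, against 584, 444 and 447 in vehicle 1 to 3. Niclosamide 3 was the lowest and vehicle 1 the highest library, and niclosamide 1 lay above vehicle 2 and 3. For *Lrp1* the log2 fold change was -0.23 ± 0.23 (95% interval -0.78 to 0.32; edgeR adjusted p = 0.96). Summed smooth muscle markers had 2681, 1938 and 4789 CPM in niclosamide 1 to 3, against 8469, 5739 and 7621 in vehicle 1 to 3. The groups did not overlap in these sums, and niclosamide 3, the highest niclosamide library in them, was the lowest in *Lrp1*. All 8 markers were detected in each library, and their part in *Lrp1* was not tested.

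**Figure D3:**
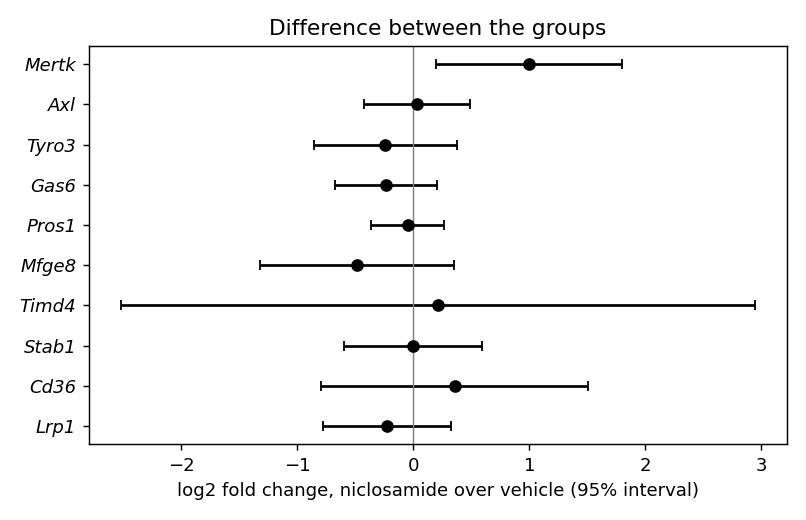
Log2 fold change of each gene, niclosamide over vehicle, with its 95% interval from edgeR's quasi-likelihood fit of 3 against 3 libraries. The interval of *Mertk* (0.20 to 1.801, before any adjustment) lies above 0, those of the other 9 genes include 0, and that of *Timd4* is the widest (-2.52 to 2.94).

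In order of level per exon length, averaged over the 6 libraries, *Mfge8* (339 TPM) and *Gas6* (294) came first, then *Axl* (169), *Cd36* (126), *Pros1* (101), *Lrp1* (72.5), *Stab1* (39.3), *Mertk* (23.3), *Tyro3* (10.2) and *Timd4* (5.56). *Gas6* lay above every receptor on this scale in the mean, while *Pros1* lay below *Axl* and *Cd36*. The order of the group means was the same with niclosamide and with vehicle. Neighbours whose ranges over libraries did not meet were *Gas6* above *Axl*, *Lrp1* above *Stab1*, and *Mertk* above *Tyro3*. *Mfge8* was above *Gas6* in only 4 of 6 libraries, *Cd36* above *Pros1* in 4 of 6 and *Tyro3* above *Timd4* in 4 of 6, so these neighbours did not differ beyond their spread. TPM here orders genes within libraries, and differences between the groups are given on CPM. The scale mattered for 2 genes whose groups overlapped in CPM but not in TPM. *Pros1* had 88.9, 92.6 and 99.7 TPM in niclosamide 1 to 3, against 107, 101.4 and 113 in vehicle 1 to 3. *Lrp1* had 72.5, 64.6 and 51.1 TPM, against 90.8, 80.6 and 75.2. The share of all genes without overlap in TPM was not counted.

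**Figure D4:**
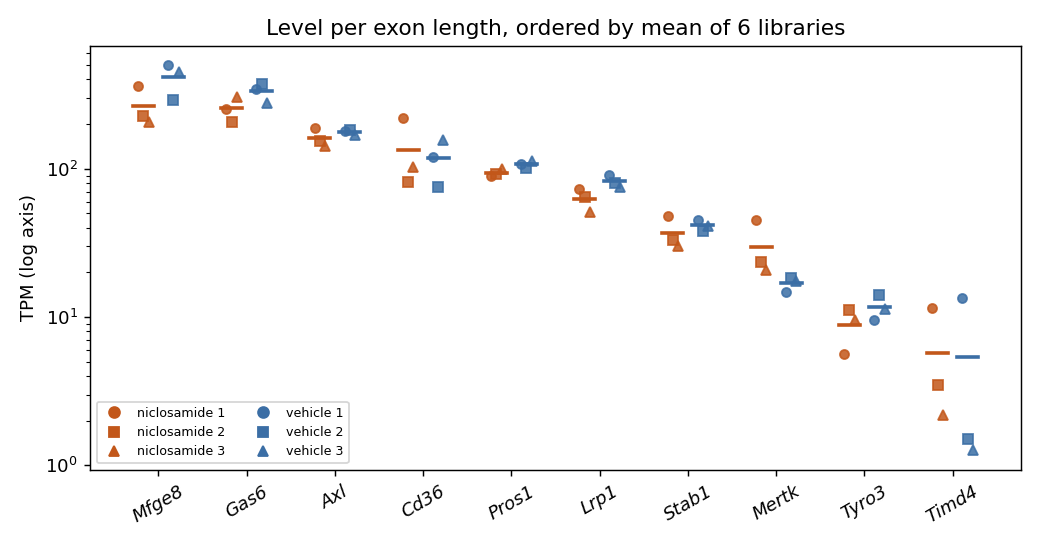
TPM (log axis) of the 10 genes in the 3 niclosamide (orange) and 3 vehicle (blue) libraries, ordered by the mean over the 6 libraries; bars are group means. *Mfge8* and *Gas6* lie at 207 TPM or more in every library, and *Timd4* spans 1.26 to 13.4 TPM.

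Many of the genes had their extremes in the same libraries. Niclosamide 1 was the highest niclosamide library in 7 of the 10 genes and niclosamide 3 the lowest in 7 of 10. Vehicle 1 was the highest vehicle library in 7 of 10 and vehicle 2 the lowest in 6 of 10. These were not the same genes each time, and only *Axl*, *Mfge8*, *Stab1* and *Lrp1* had all of these extremes. By contrast, *Tyro3* was lowest in niclosamide 1 and *Mertk* in vehicle 1. The shares of all genes tested with these extremes were not counted. In the macrophage marker sums, niclosamide 1 and vehicle 1 were likewise the highest of their groups, and niclosamide 3 and vehicle 2 the lowest. The sums were 11860.1, 8641 and 5528 CPM in niclosamide 1 to 3 and 6345, 3597 and 4886 CPM in vehicle 1 to 3. All 12 of these markers were detected in every library. The log2 fold change was positive in 11 of them, with a median of 0.43, and edgeR called 0 (unadjusted p under 0.05 in 3). Their mean level was 7.81 ± 0.45 log2 CPM with niclosamide and 7.35 ± 0.38 with vehicle (SD, n = 3 each), with overlap.

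Set against these macrophage markers within each library, 8 of the 10 genes had a lower mean with niclosamide than with vehicle. Of these, *Cd36*, with a difference of -0.18, turned to 0.16 without niclosamide 2 and to 0.14 without vehicle 3. The marker mean was itself 0.46 log2 units higher with niclosamide, so any gene with a smaller difference of its own came out lower here. The median log2 fold change of all genes tested was 0.02, and the share of all genes with a lower mean on this scale was not counted. The groups did not overlap in *Mfge8*, *Stab1* and *Lrp1*, all lower with niclosamide; 9.09% of all genes tested were lower without overlap on this scale and 0.714% higher. *Lrp1* stood 0.80, 0.84 and 0.98 log2 units above the marker mean in niclosamide 1 to 3, against 1.403, 1.73 and 1.60 in vehicle 1 to 3. *Mfge8* had 0.31, -0.15 and 0.20 log2 units in niclosamide 1 to 3, against 1.05, 0.78 and 1.36 in vehicle 1 to 3. *Stab1* was at -0.69, -1.01 and -0.67 with niclosamide and at -0.49, -0.25 and -0.16 with vehicle. *Mfge8* and *Lrp1* are also expressed outside macrophages, so the scale is a common yardstick and not a level per macrophage. *Mertk* averaged -1.85 ± 0.37 log2 units with niclosamide and -2.28 ± 0.44 with vehicle, and its groups overlapped on this scale. With the marker mean as a covariate in edgeR, the log2 fold change of *Mertk* was 0.57 ± 0.38 (edgeR adjusted p = 0.79).

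**Figure D5:**
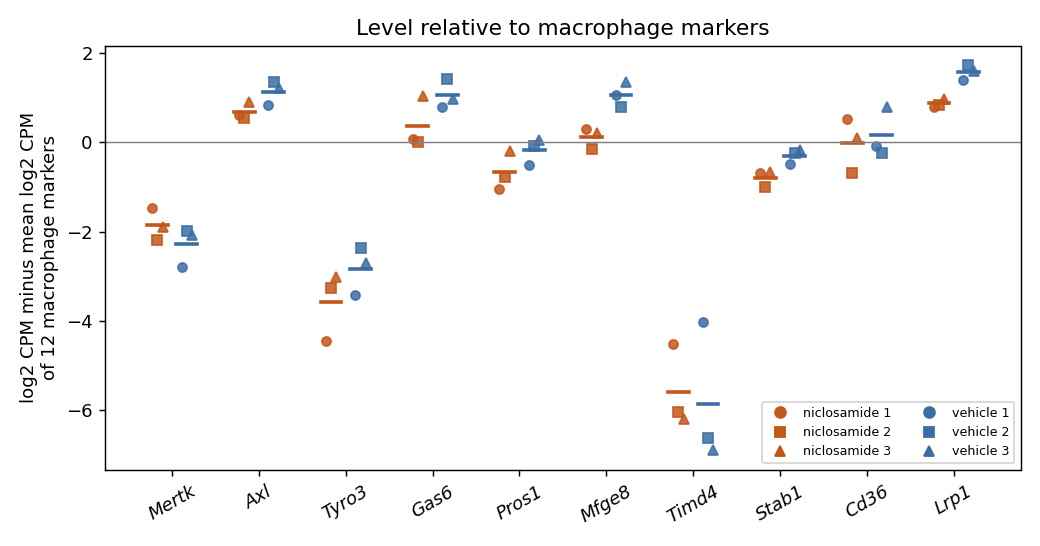
Log2 CPM of each gene minus the mean log2 CPM of 12 macrophage markers of the same library, for 3 niclosamide (orange) and 3 vehicle (blue) libraries; bars are group means. *Mfge8*, *Stab1* and *Lrp1* lie lower with niclosamide without overlap, and *Mertk* is at -2.20 to -1.47 with niclosamide and -2.79 to -1.99 with vehicle.

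Likeness of pattern was measured as the root mean square difference of log2 CPM over the 6 libraries, each gene centred on its own mean. Among the 10 genes, *Axl* and *Stab1* were the most alike (0.12), followed by *Axl* and *Lrp1* (0.16) and by *Stab1* and *Lrp1* (0.16). Of 11224 other genes, the nearest to *Mertk* was *Apobec1* (0.11), with 145, 86.0 and 64.2 CPM in niclosamide 1 to 3, against 55.1, 57.4 and 59.4 in vehicle 1 to 3, followed by *Rasgrp1* (0.13). The nearest to *Cd36* was *Lpl*, the lipoprotein lipase gene (0.14), with 972, 321 and 331 CPM in niclosamide 1 to 3, against 456, 275 and 464 in vehicle 1 to 3, then *Cd4* (0.18). *Timd4* had no close neighbour, the nearest being *Pdcd1lg2* (0.66) and *Cxcl13* (0.70). For the other genes the nearest were *Pip5k1c* and *Tpcn2* for *Axl*, *Fnbp1l* and *Usp18* for *Tyro3*, *Map3k6* and *Med27* for *Gas6*, and *Nfkbil1* and *Dnajc14* for *Pros1*. They were *Nr1d1* and *Cass4* for *Mfge8*, *Synpo* and *Gpr146* for *Stab1*, and *Dopey2* and *Plekhf1* for *Lrp1*, at 0.02 to 0.16 in all these pairs. With 6 libraries and this many candidates, such likeness describes the libraries only.

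Other genes of the same pathway were taken from 8 lists of 89 genes, 85 of them tested. edgeR, DESeq2 and limma-voom called 0 of them. At an unadjusted edgeR p under 0.05 there were 7 higher and 1 lower, 9.41% of those tested, against 6.92% of all genes. Their median log2 fold change was 0.11, with 58 above 0 and 27 below. Groups did not overlap in 9 that were higher (5.9% of all genes tested were) and 3 that were lower (6.37%). None of the values named in the next paragraphs passed after adjustment (edgeR adjusted p 0.60 to 0.97).

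For 17 tested genes of other uptake receptors, the median was 0.43 on the log2 scale, and 13 lay above 0. *Marco*, a scavenger receptor of macrophages, had 13.5, 25.3 and 13.001 CPM in niclosamide 1 to 3, against 6.45, 3.52 and 9.74 in vehicle 1 to 3. All its niclosamide values lay above all vehicle values, with a log2 fold change of 1.39 ± 0.45. *Msr1*, scavenger receptor A, had 144, 112 and 73.0 CPM in niclosamide 1 to 3, against 72.2, 49.6 and 65.9 in vehicle 1 to 3, a log2 fold change of 0.81 ± 0.27. *Havcr2*, the gene of Tim-3, named after its values were seen, averaged 34.0 ± 15.4 CPM with niclosamide and 16.2 ± 1.76 with vehicle, with overlap. Tim-3 is also found on T and NK cells, whose 11 markers, all detected in every library, summed to 532 to 768 CPM with niclosamide and 327 to 388 with vehicle, without overlap. Of these markers, 11 of 11 had a positive log2 fold change (median 0.91), 9 at an unadjusted edgeR p under 0.05 and 0 after adjustment, and their part in *Havcr2* was not tested. Among 9 tested opsonins and bridges, the complement genes *C1qb* (678 ± 201 and 423 ± 161 CPM) and *C1qc* (519.5 ± 164 and 340.2 ± 118 CPM) overlapped between niclosamide and vehicle. The 3 integrin chains that serve Mfge8 had log2 fold changes of -0.24 to -0.02, among them *Itgb3* (-0.24 ± 0.33) and *Itgb5* (-0.19 ± 0.17).

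Among 18 genes of phagosome digestion and lipid efflux, 16 were above 0 (median log2 fold change 0.36). *Lipa*, the lysosomal acid lipase gene, had 311, 203 and 195 CPM in niclosamide 1 to 3, against 180.4, 125 and 167 in vehicle 1 to 3, without overlap (0.59 ± 0.24). *Ctsd*, the gene of the lysosomal protease cathepsin D, had 2448, 1846 and 2655 CPM in niclosamide 1 to 3, against 1887, 1092 and 1424 in vehicle 1 to 3, with overlap (0.66 ± 0.27). The 8 genes of TAM processing and feedback had a median of -0.03, with 3 above 0 and 5 below. Of these, *Adam17*, the sheddase that releases the outer part of Mertk, had 172, 164 and 127 CPM in niclosamide 1 to 3, against 115, 114 and 121 in vehicle 1 to 3. Its groups did not overlap, and the log2 fold change was 0.40 ± 0.15. *Twist1*, a transcription factor gene, had 15.4, 16.999 and 15.1 CPM in niclosamide 1 to 3, against 20.8, 22.8 and 23.6 in vehicle 1 to 3, without overlap (-0.50 ± 0.14). Most of these genes are expressed in macrophages, whose markers are given above, and the part of macrophages in their values was not tested.

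Median log2 fold changes of the remaining lists were 0.06 for 9 find-me signals and receptors, 0.17 for 8 genes of phosphatidylserine exposure and of the don't-eat-me signal, and 0.03 for 13 genes of the engulfment machinery. Of the find-me genes, *Sphk1*, which makes sphingosine 1-phosphate, averaged 13.9 ± 5.74 CPM with niclosamide and 19.9 ± 2.39 with vehicle, and the nucleotide receptor gene *P2ry2* 12.4 ± 4.30 and 16.0 ± 2.42. *Tmem30a*, the subunit that flippases need, had 260.3, 294 and 262 CPM in niclosamide 1 to 3, against 180.0, 229 and 238 in vehicle 1 to 3, without overlap (0.33 ± 0.16). The kinase gene *Abl1* had 92.3, 88.1 and 98.8 CPM in niclosamide 1 to 3, against 110.4, 117 and 107 in vehicle 1 to 3, without overlap (-0.26 ± 0.11), and *Was*, an actin regulator of blood cells, had 0.42 ± 0.20.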

How the data were processed

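Niclosamide-treated and vehicle-treated lesions were compared by RNA-seq, with 3 libraries per group. The authors deposited raw counts of reads for each symbol, made with featureCounts 1.4.6-p4 on STAR alignments, reverse-stranded, over exons of the GRCm38.p3 annotation, per the file headers. No option for reads with several alignments or several genes was set. The submitters' processing notes also name Trimmomatic 0.33, STAR 2.4.2a and edgeR 3.12.0. Total counts were 27797121 to 34797000 per library, where a count of 3, the limit that 0 allows, is 0.0862 to 0.108 CPM (counting error only). No 2 libraries were identical (Spearman correlation 0.948 to 0.967).

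With edgeR 4.0.16 (R 4.3.3), genes were kept by filterByExpr (minimum count 10, total 15; 17364 of 41786), scaled by TMM (factors 0.945 to 1.05) and fitted by a robust quasi-likelihood model with the group as its only term. Benjamini-Hochberg adjustment covered all genes tested, with a threshold of 0.05. Each SE is |log2 fold change| divided by the root of the F statistic. TPM was computed from the counts and the exon lengths in the files. Log2 CPM used a prior count of 2. Alternatives were DESeq2 1.42.0, limma-voom (limma 3.58.1), other scalings and filters, the replicate number as a block, marker covariates and leaving out each library. The procedure was tested on simulated counts. The genes and lists were chosen with earlier results of these data known. Named were all 10 genes, the 2 with the smallest p per pathway list (1 such gene is not reported here) and the 2 nearest patterns per gene, from tested genes of mean log2 CPM of at least 3 without predicted genes and immunoglobulin or T cell receptor segments. Promoter sequences are RefSeq's (GRCm38.p6).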

Additional observations from a re-analysis of the deposited data

How the results depend on the processing

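Over 15 alternatives, *Mertk*, *Tyro3*, *Gas6*, *Mfge8* and *Lrp1* kept their direction, and 0 of the 10 genes and 0 pathway genes had an adjusted p under 0.05 under any of them. At an adjusted p under 0.10, edgeR still called 0, while DESeq2 gave *Twist1* an adjusted p of 0.0877. *Mertk* had log2 fold changes of 0.52 (without niclosamide 1) to 1.25 (without niclosamide 3), with edgeR, DESeq2 or limma-voom adjusted p of 0.22 (DESeq2) to 1.00. Over all genes, 1 was called without a filter and 189 by DESeq2, against 0 by edgeR with the filter. *Stab1*, at -0.001 in the main comparison, had 0.0107 with RLE scaling and 0.0107 by DESeq2. With macrophage markers as a covariate, the direction turned for *Axl* (-0.21), *Timd4* (-0.94) and *Cd36* (-0.17), while *Mfge8* had -0.97, *Lrp1* -0.57 and *Stab1* -0.38 (edgeR adjusted p 0.67 to 0.71). The causes were not tested. Leaving out 1 library gave ranges that crossed 0 for *Axl* (-0.14 to 0.18), *Timd4* (-0.88 to 2.30), *Cd36* (-0.26 to 0.61), *Stab1* (-0.27 to 0.18) and *Pros1* (-0.14 to 0.00706). Without division by length, 6 of 10 genes changed place in the order of levels, and *Lrp1* came first. Differences relative to macrophage markers moved by less than the larger of the 2 groups' SDs in all 80 recomputed values. Leaving out 1 library turned the sign of *Timd4* (-0.26 to 1.18) and *Cd36* (-0.45 to 0.16) on that scale, and gave 0.18 to 0.60 for *Mertk*. With the replicate number as a block, 0 of the 10 genes were called and *Mertk* had 0.89, but the labels do not say whether equal numbers pair libraries. Same-numbered libraries deviated with correlations of -0.08, -0.09 and 0.27. Niclosamide 2 was closest to vehicle 1 (0.36) and niclosamide 3 to vehicle 3. These correlations cannot decide on a pairing, because they rest on deviations within groups of 3 libraries.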
